A study of Mus musculus with 12 samples.

Results

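The BCL2 family holds the proteins that decide whether the outer membrane of the mitochondrion is opened during apoptosis. Its 10 members described here were taken by gene symbol from the 50600 genes counted in each library, with earlier results of these data known. They were Bcl2, Bcl2l1 and Mcl1 as pro-survival members, Bax and Bak1 as effectors, and Bcl2l11, Bid, Bad, Bbc3 and Pmaip1 as BH3-only members. RNA had been sequenced from 12 mice, 3 in each of 4 groups. Ctrl were thymocytes of mice with both Dnmt1 alleles flanked by loxP sites (DNMT1 fl/fl) and no Cre, aged 20 to 25 wk. KO were thymocytes of DNMT1 fl/fl CD4-CRE mice, aged 20 to 21 wk, in which Cre under the Cd4 promoter deletes Dnmt1 in T cells. ALK were lymphoma cells of mice labelled NPM-ALK+, aged 22 to 31 wk, which carry the human NPM-ALK fusion kinase under the Cd4 enhancer and promoter. ALKKO were thymocytes of mice with the transgene and the deletion (NPM-ALK+, DNMT1 fl/fl CD4-CRE), aged 19 to 25 wk. All mice were of mixed C57Bl/6xSV/129 background and male, except KO mouse 2. ALK is therefore tumor tissue and the other groups are thymus, so that tissue and genotype cannot be told apart in any comparison with ALK.

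Pro-survival members bind the effectors and the BH3-only proteins and keep the membrane closed. When BH3-only proteins such as BIM (Bcl2l11), PUMA (Bbc3) or NOXA (Pmaip1) are made or activated, they occupy the pro-survival proteins or act on BAX and BAK, which then form pores that let cytochrome c escape and switch on caspases. In the thymus, BCL-XL (Bcl2l1) is known to keep double-positive thymocytes alive, BCL2 to protect mature T cells, MCL1 to be needed at several stages, and BIM to remove self-reactive cells.

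The members share the BH3 segment, through which they bind each other and by which the BH3-only group is named. Its core was searched in the coding sequences as a leucine codon, any 3 codons, a codon of glycine, alanine or serine, and an aspartate codon. Each of the 9 members shown held this pattern exactly 1 time. It is a loose pattern, present in 34.4% of 20307 mouse coding sequences searched, so that a match is a description and no proof of a BH3 segment. The sequences run 5′ to 3′ on the coding strand of GRCm38 (GENCODE M21), with the 6 core codons in capitals and 3 codons on each side.
Bcl2 (chr1:106712575-106712610, minus strand, exon 1): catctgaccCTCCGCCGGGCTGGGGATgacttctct
Bcl2l1 (chr2:152829697-152829732, minus strand, exon 2): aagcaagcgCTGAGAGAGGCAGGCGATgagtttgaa
Mcl1 (chr3:95659427-95659462, plus strand, exon 1): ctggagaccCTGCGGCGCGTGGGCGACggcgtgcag
Bax (chr7:45465997-45466032, minus strand, exon 3): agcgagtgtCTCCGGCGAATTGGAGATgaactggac
Bak1 (chr17:27022531-27022566, minus strand, exon 4): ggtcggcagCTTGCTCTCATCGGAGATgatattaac
Bcl2l11 (chr2:128147141-128147176, plus strand, exon 3): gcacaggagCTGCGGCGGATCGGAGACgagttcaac
Bid (chr6:120897289-120897324, minus strand, exon 4): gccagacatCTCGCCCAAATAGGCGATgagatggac
Bad (chr19:6950783-6950818, plus strand, exon 3): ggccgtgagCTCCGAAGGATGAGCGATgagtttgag
Bbc3 (chr7:16313764-16313799, plus strand, exon 3): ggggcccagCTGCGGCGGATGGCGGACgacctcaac

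The libraries held 12473857 to 18864327 reads on genes, and levels are counts scaled to library size (CPM) after TMM normalization. All 10 members passed the low-count filter with 16052 genes in all, and a gene was called where edgeR's quasi-likelihood test gave a Benjamini-Hochberg adjusted p under 0.05 with a log2 fold change beyond 1 in size. The labels were checked on Dnmt1 and on mouse Alk, to which reads of the transgene can align. Dnmt1 had 444 ± 43.6 CPM in Ctrl (SD, n = 3), 230.0 ± 20.8 in KO, 224 ± 19.8 in ALKKO and 597 ± 206 in ALK. Alk had 46.5 ± 10.3 CPM in ALK and 53.0 ± 3.40 in ALKKO, with at most 0.431 CPM in any mouse of Ctrl or KO. Of the libraries labelled thymocytes, KO2 stood apart in the summed level of 6 B cell genes (2197 CPM, against 53.3 to 101 in the other 8). KO2 also had less of the thymocyte genes (4585 CPM, against 9138 to 13011) and of the thymic epithelial genes (74.3 CPM, against 414 to 674) and more of the macrophage genes (2732 CPM, against 669 to 1018), and KO3 stood apart in that of 4 heart muscle genes (4828 CPM, against 3.07 to 20.0). Rag1 was listed at 0 in all 12 libraries, and the other 11 of 12 thymocyte markers were above 3 counts in each.

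In ALK tumors, 4 of the 10 members were called against Ctrl thymocytes, beside 20.4% of all genes tested. Bcl2l1, Bbc3 and Pmaip1 were lower and Bax was higher, so that a pro-survival gene and a pair of BH3-only genes fell while an effector gene rose. Mcl1 also passed the adjusted p, as 29.5% of all genes did, and lay on the edge of the fold threshold. Bak1, Bid and Bad had overlapping values and fold changes near 0. The values of the ALK and Ctrl mice did not overlap in 5 members that were lower and in 1 that was higher in ALK, beside 25.1% and 21.3% of all genes (46.4% in either direction). The median log2 fold change of the 10 members was -0.69, beside 0.05 over all genes tested.

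**Figure D1:**
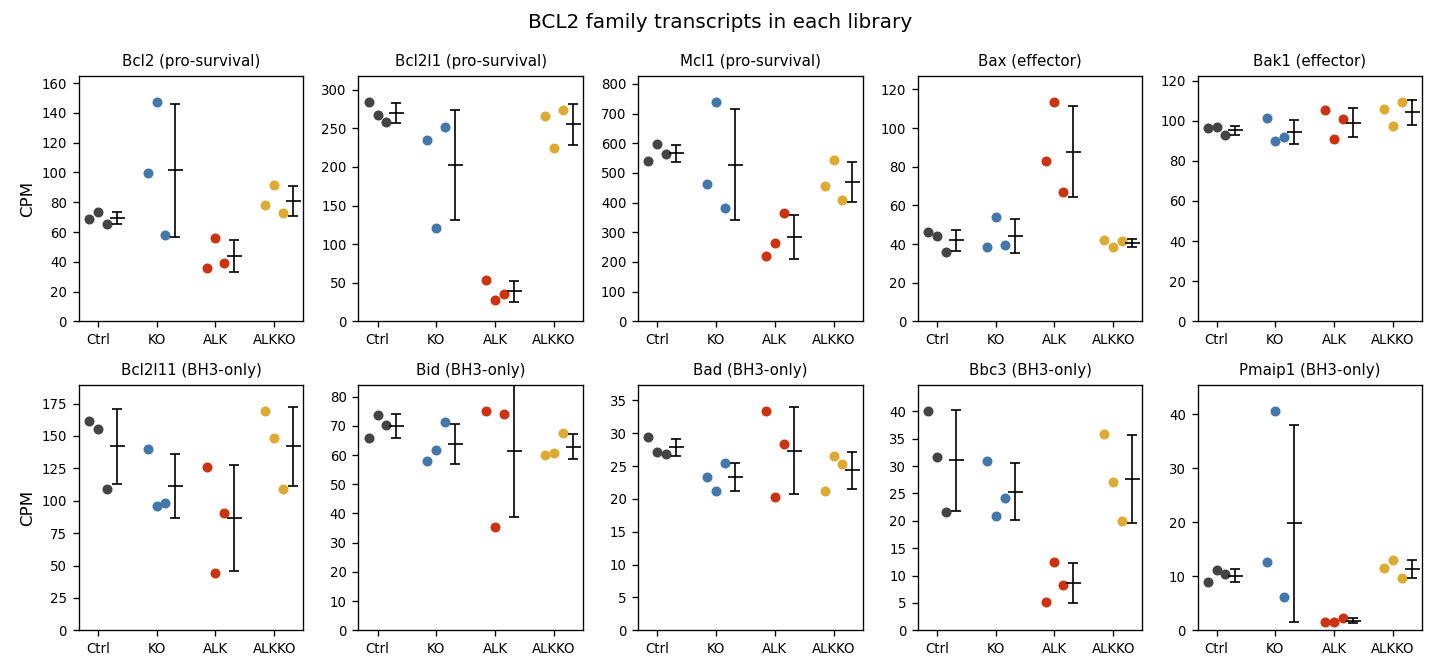
Level of each member in CPM (linear axis from 0) in the 12 libraries, 1 point per mouse, with the mean and SD of 3 mice as a black bar beside each group. In ALK the Bcl2l1, Bbc3 and Pmaip1 points lie below and the Bax points above those of every other group, while the Bak1 points of all groups lie between 89.9 and 109 CPM.

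Bcl2l1 (chr2:152780668-152831728, minus strand) encodes BCL-XL. Its level was 284, 267 and 259 CPM in Ctrl and 53.8, 27.6 and 35.3 CPM in ALK. The highest tumor was thus far below the lowest Ctrl mouse. The log2 fold change was -2.79 (SE 0.30, edgeR adjusted p = 0.000411), which corresponds to a level 6.93-fold lower, the largest difference among the 10 members in this fit and in 20 of 21 alternatives; without ALK3, Pmaip1 and Bcl2l1 both had -2.74. The tumor values rest on 316 to 801 reads per library.

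Mcl1 (chr3:95658788-95663176, plus strand) encodes a short-lived pro-survival protein and was the most abundant member per length. Its level was 540, 597 and 563 CPM in Ctrl and 221, 265 and 365 CPM in ALK, again without overlap. The log2 fold change was -0.999 (SE 0.26, edgeR adjusted p = 0.0160), just inside the threshold. It was past that threshold under several other settings, DESeq2 among them (-1.03).

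Bcl2, the founding member of the family, had 69.0, 73.3 and 65.1 CPM in Ctrl and 36.1, 56.0 and 39.0 CPM in ALK. The groups did not overlap, but the difference was not past the threshold (log2 fold change -0.66, SE 0.29, edgeR adjusted p = 0.108). All 3 pro-survival members had lower values in each tumor than in each Ctrl mouse, as 25.1% of all genes did. Of these members, 2 passed the adjusted p, as 29.5% of all genes did in either direction.

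Bax (chr7:45461697-45466898, minus strand) encodes the effector that moves from the cytosol to the mitochondrion on activation. It had 46.0, 44.0 and 35.9 CPM in Ctrl and 83.2, 113 and 67.0 CPM in ALK. The lowest tumor was above the highest Ctrl mouse, with a log2 fold change of 1.07 (SE 0.21, edgeR adjusted p = 0.00458). Without ALK2, the tumor with the highest level, the log2 fold change was 0.82, and without Ctrl3, the Ctrl mouse with the lowest, it was 0.97, both still past the adjusted p and under the fold threshold. When each library had to hold 10 counts or more of a gene it was 0.98, likewise under the threshold. Bak1, the second effector, had 95.2 ± 2.21 CPM in Ctrl and 99.1 ± 7.41 in ALK (SD, n = 3). This difference was smaller than the spread between tumors (log2 fold change 0.06, SE 0.10, edgeR adjusted p = 0.700).

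Among the BH3-only members, Bbc3 (chr7:16308393-16318205, plus strand) encodes PUMA, a p53 target that also responds to glucocorticoids. It had 40.0, 31.6 and 21.6 CPM in Ctrl and 5.17, 12.4 and 8.37 CPM in ALK, with no overlap although the Ctrl mice spread widely. The log2 fold change was -1.85 (SE 0.36, edgeR adjusted p = 0.00496). Pmaip1 encodes NOXA, which binds MCL1 above other pro-survival proteins. Its level was low, at 8.88, 11.2 and 10.4 CPM in Ctrl and 1.48, 1.57 and 2.27 CPM in ALK. The log2 fold change was -2.51 (SE 0.59, edgeR adjusted p = 0.0107), and the tumor values rest on 18 to 29 reads per library.

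Bcl2l11, Bid and Bad did not pass the test in ALK against Ctrl. Bcl2l11 ranged from 109 to 162 CPM in the Ctrl mice and from 44.4 to 126 CPM in the tumors (log2 fold change -0.71, SE 0.34, edgeR adjusted p = 0.134). It passed the adjusted p and the fold threshold only where ALK1, the tumor with the highest value, was left out (-1.08, adjusted p = 0.0325). Bid, which caspase-8 cleaves to link death receptors to the mitochondrion, had 65.8 to 73.8 CPM in the Ctrl mice and 75.0, 35.4 and 74.1 CPM in ALK, so that ALK2 alone was low. Bad, which growth factor signals inactivate by phosphorylation, had 26.9 to 29.4 CPM in the Ctrl mice and 20.3 to 33.3 CPM in the tumors. ALK2 was the lowest tumor for Bcl2l1, Bak1, Bcl2l11, Bid and Bad and the highest for Bcl2, Bax and Bbc3.

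**Figure D2:**
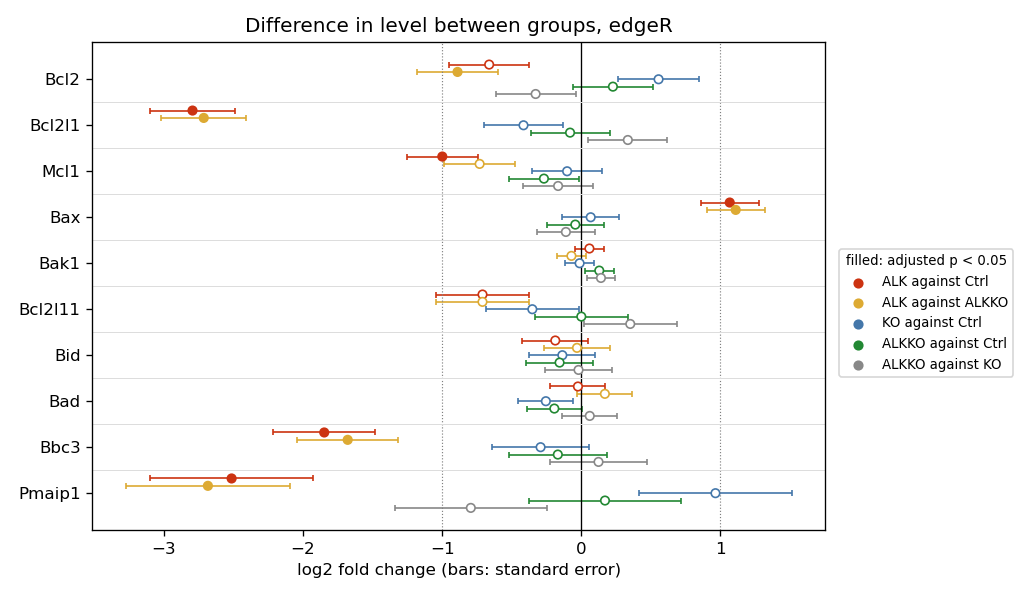
Log2 fold change of each member in 5 comparisons from 1 edgeR fit, with the standard error as a bar, filled where the adjusted p was under 0.05; dotted lines mark -1 and 1. Bcl2l1, Bbc3 and Pmaip1 lie left of -1 and Bax right of 1 in both comparisons of ALK, which share the 3 ALK libraries, and no point of the other comparisons is filled.

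Markers of the tissue differed between these groups in the same libraries. The summed level of the 12 thymocyte genes was 10662 to 13011 CPM in the Ctrl mice, against 3615 to 4483 CPM in the tumors. The 6 thymic epithelial genes summed to 588 to 674 CPM in the Ctrl mice and 7.59 to 157 CPM in the tumors, and the 6 stromal genes to 201 to 349 CPM in the Ctrl mice and 933 to 2413 CPM in the tumors. B cell genes were lower in ALK (5.85 to 16.3 CPM against 53.6 to 96.3 CPM), and macrophage genes overlapped (423 to 1181 CPM against 669 to 748 CPM). The summed level of 6 proliferation genes was 1755 to 4025 CPM in the tumors, around the 2130 to 2630 CPM of Ctrl. The part of these markers in the differences of the members was not tested, and in RNA of a whole tissue fewer cells of a type and less RNA per cell cannot be told apart.

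The next comparison asks how the tumors differ from thymocytes that also carry NPM-ALK, with the Cd4-Cre deletion of Dnmt1, in which Dnmt1 reads were reduced and not absent. ALK and ALKKO differed in 4 members, beside 19.6% of all genes tested. This comparison shares the 3 tumor libraries with the one above, so its values are set beside those and are no independent support. Bcl2l1 had 266, 225 and 274 CPM in ALKKO, a log2 fold change of -2.71 in ALK against ALKKO (SE 0.30, edgeR adjusted p = 0.000473). Bax had 42.2, 38.5 and 41.4 CPM in ALKKO (log2 fold change 1.11, SE 0.21, edgeR adjusted p = 0.00411). Bbc3 had 35.9, 27.1 and 19.9 CPM and Pmaip1 11.5, 13.0 and 9.71 CPM in ALKKO. Their log2 fold changes in ALK were -1.68 (SE 0.36, edgeR adjusted p = 0.00799) and -2.68 (SE 0.59, edgeR adjusted p = 0.00855). None of these 4 genes had overlapping values in ALKKO and ALK.

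Bcl2 and Mcl1 also had higher values in each ALKKO mouse than in each tumor, so that 5 members were lower and 1 higher in ALK without overlap, beside 23.7% and 19.5% of all genes (43.2% in either direction). Bcl2 had 78.4, 91.8 and 72.6 CPM in ALKKO and passed the adjusted p within the fold threshold, as 1 of 5 members beside 28.1% of all genes past it (log2 fold change -0.89 in ALK against ALKKO, SE 0.29, edgeR adjusted p = 0.0434). This p was above 0.05 in 10 of 21 alternatives, and reached 0.119. Mcl1 had 458, 544 and 410 CPM in ALKKO (log2 fold change -0.73, SE 0.25, edgeR adjusted p = 0.0549), and this p was under 0.05 in 8 of 21 alternatives, DESeq2 among them (0.0207). Of these 8, the sex term and the fit without KO2, the only female, are not separate alternatives in effect. Markers again differed: thymocyte genes summed to 9138 to 10611 CPM and epithelial genes to 414 to 502 CPM in ALKKO. The stromal genes summed to 157 to 877 CPM in ALKKO, where ALKKO2 came close to the lowest tumor (933 CPM).

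ALKKO thymocytes themselves gave 0 called members against Ctrl with edgeR, beside 0.181% of all genes, and 0 with DESeq2, beside 98 of 16052 genes. At an unadjusted p under 0.05 there were 0 members, beside 510 of 16052 genes. The log2 fold changes ran from -0.27 (Mcl1) to 0.23 (Bcl2), with standard errors of 0.10 to 0.54. Alk reads were thus present in ALKKO while no member passed the test, and differences of the order of these errors were not detectable with 3 mice. Bad was lower in each ALKKO mouse than in each Ctrl mouse and Bak1 higher, beside 7.56% and 9.92% of all genes without overlap in that direction. Against KO, ALKKO gave 0 called members by edgeR, beside 0.00623% of all genes, and 0 by DESeq2, beside 24 of 16052 genes. There were 0 members at an unadjusted p under 0.05, beside 432 of 16052 genes. The values of all 10 members overlapped, while 6.34% of all genes had values that did not.

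Deletion of Dnmt1 alone was examined in KO against Ctrl. Here too 0 members were called by edgeR, beside 0.0187% of all genes, and 0 by DESeq2, beside 42 of 16052 genes. At an unadjusted p under 0.05 there were 0 members, beside 886 of 16052 genes. Bcl2l1 and Bad were lower in each KO mouse than in each Ctrl mouse, beside 6.24% of all genes. For Bcl2, Bcl2l1, Mcl1 and Pmaip1 the KO mice spread more than the Ctrl or ALKKO mice. Bcl2 had 99.9, 147 and 57.8 CPM, Bcl2l1 235, 121 and 251 CPM, and Pmaip1 12.7, 40.6 and 6.20 CPM. The second value of each is that of KO2, the library with high B cell and macrophage genes and with thymocyte and epithelial genes near the levels of the tumors. It was the highest of all 12 libraries for Bcl2, for Pmaip1 and, at 738 CPM, for Mcl1, and the lowest thymocyte library for Bcl2l1. Without KO2, the log2 fold change of Bcl2 in KO against Ctrl went from 0.56 to 0.19, that of Bcl2l1 from -0.42 to -0.15, that of Mcl1 from -0.10 to -0.42 and that of Pmaip1 from 0.96 to -0.10. The part of these markers in the KO2 values was not tested. KO2 was also the only female.

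Whether the difference linked to NPM-ALK depends on Dnmt1 was tested as an interaction, the log2 fold change of ALK against Ctrl minus that of ALKKO against KO. It was past both thresholds in 3 of 10 members, beside 8.93% of all genes tested (3.31% higher and 5.62% lower). These were Bcl2l1 (-3.13, SE 0.41, edgeR adjusted p = 0.00276), Bax (1.18, SE 0.29, edgeR adjusted p = 0.0319) and Bbc3 (-1.97, SE 0.50, edgeR adjusted p = 0.0359). Pmaip1 had -1.72 (SE 0.79, edgeR adjusted p = 0.184). Without Ctrl1, Ctrl2, KO3, ALKKO1 or ALKKO2, and without KO2 and KO3 together, 1 member was left, Bcl2l1; without KO2 alone the 3 were Bcl2l1, Mcl1 and Pmaip1. Since ALK are tumors and ALKKO thymocytes, the test sets a change of tissue against none.

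Per kb of exon, which allows levels of different genes to be set side by side, Mcl1 was highest in Ctrl with 166 CPM per kb. It was followed by Bcl2l1 with 58.8, Bak1 with 39.6 and Bax with 26.6, and none of these neighbours overlapped with the union of exons as the length. Bax has 1576 bases by the union and 1100 in its longest transcript, and Bak1 has 2407 and 2387. The gap between Bak1 and Bax thus depends on the length used. Bid (19.7), Bcl2l11 (17.7), Bbc3 (14.6) and Bad (10.9 CPM per kb) formed a chain in which each overlapped the next. Bcl2 (7.55) and Pmaip1 (3.71 CPM per kb) came last, without overlap. In ALKKO the same 10 ranks were found by the means.

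In the tumors the order was different. Mcl1 was still first by its mean (83.0 CPM per kb), but its range overlapped that of Bax (55.7 CPM per kb), now second, and Bax overlapped Bak1 (41.2 CPM per kb). Bcl2l1 was seventh with 8.48 CPM per kb, overlapping Bad and Bcl2 beside it. Pmaip1 was last with 0.649 CPM per kb.

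**Figure D3:**
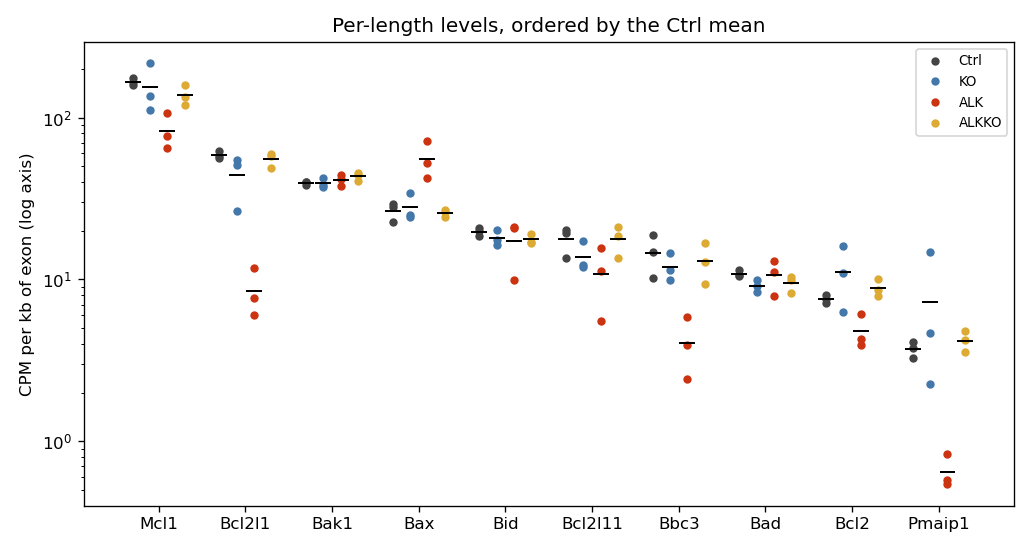
Level per kb of exon of each member (log axis), 1 point per mouse with the group mean as a line, genes ordered by the Ctrl mean. Bcl2l1 drops from the second place in Ctrl to a mean of 8.48 CPM per kb in ALK, while the Bak1 means lie between 39.2 and 43.3 in all groups and Bax rises above it in ALK.

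Summed per kb, the 3 pro-survival members had 232 ± 7.59 CPM per kb in Ctrl, 210 ± 43.9 in KO, 202 ± 15.3 in ALKKO and 96.2 ± 20.1 in ALK (SD, n = 3). Mcl1 made up 71.4% ± 1.67 of this sum in Ctrl and 85.6% ± 4.79 in ALK, and Bcl2l1 25.4% ± 1.63 and 9.27% ± 4.63. The effectors together had 66.2 ± 4.28 CPM per kb in Ctrl and 96.9 ± 12.7 in ALK, so that the ratio of the pro-survival to the effector sum was 3.52 ± 0.221 in Ctrl and 1.02 ± 0.338 in ALK. The ratio of Bcl2l1 to Bax was 2.09 to 2.48 in Ctrl, 2.01 to 2.28 in ALKKO and 0.0837 to 0.222 in ALK. In KO it was 0.765 in KO2 and 2.10 and 2.20 in the other mice. These sums and ratios describe RNA and were given no test, since the genes in them were tested singly. The sums, shares and ratios also depend on the length used. Bcl2l1 has 4586 bases by the union of exons and 2568 in its longest transcript, while Mcl1 has 3418 by both. A shorter length for Bcl2l1 would raise its share and lower that of Mcl1.

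**Figure D4:**
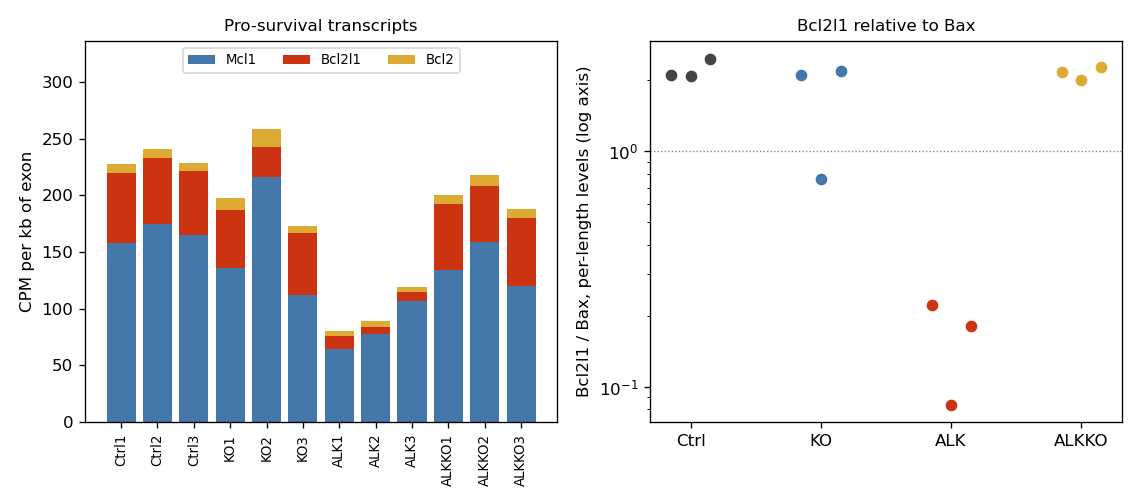
Left, stacked levels of Mcl1, Bcl2l1 and Bcl2 in CPM per kb of exon in each library. Right, the ratio of the per-length levels of Bcl2l1 and Bax, 1 point per mouse (log axis, dotted line at a ratio of 1). The ALK libraries have the 3 shortest bars with the thinnest Bcl2l1 layer, and ratios of 0.0837 to 0.222.

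The 250 bases upstream of the annotated starts (RefSeq, GRCm38.p6) were searched for letters known to be bound by factors that act on this family. CACGTG is an E-box that MYC can bind, and TTCNNNGAA is a core that STAT proteins bind. Both read the same on either strand and cannot overlap each other. CACGTG was found in 1 window of Bax and in 1 of 3 windows of Bbc3, and 6.02% of 32851 such mouse windows hold it. TTCNNNGAA was in 0 of the 15 windows of 9 members searched, and is in 7.02% of all. The E-box is thus beside 1 member that was higher and 1 that was lower in the tumors, shown here for that reason with the E-box in capitals. A match is a description and not a bound site.
Bax (chr7:45466899-45467148, minus strand, E-box 9 bases before the start): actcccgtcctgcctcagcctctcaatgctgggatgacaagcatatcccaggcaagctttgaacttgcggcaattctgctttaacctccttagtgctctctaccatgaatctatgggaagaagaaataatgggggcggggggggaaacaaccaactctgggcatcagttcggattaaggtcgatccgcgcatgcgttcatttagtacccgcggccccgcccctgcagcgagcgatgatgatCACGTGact
Bbc3 (chr7:16310181-16310430, plus strand, E-box 64 bases before the start): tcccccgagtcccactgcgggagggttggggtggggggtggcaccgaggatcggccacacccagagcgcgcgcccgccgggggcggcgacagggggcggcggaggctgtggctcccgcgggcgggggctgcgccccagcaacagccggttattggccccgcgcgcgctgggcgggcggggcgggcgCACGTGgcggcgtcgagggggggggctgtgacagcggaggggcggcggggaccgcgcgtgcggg

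Beyond the members, 64 other genes of apoptosis and its control were listed, and 60 were tested. In ALK against Ctrl, 1 was called higher and 8 lower, beside 8.41% and 12% of all genes, and their median log2 fold change was 0.07, the same with genes at the count floor set to their bound. Of the 60, 41 did not pass the adjusted p. Against Ctrl, 0 were called in KO and 0 in ALKKO by edgeR and by DESeq2, beside 0.0187% and 0.181% of all genes by edgeR. By DESeq2, 42 and 98 of 16052 genes were called. At an unadjusted p under 0.05 there were 1 and 4 of the 60, beside 886 and 510 of 16052 genes.

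Of the regulators, Myc, which encodes an oncogenic transcription factor, rose from 69.8 to 77.4 CPM in the Ctrl mice to 217 to 276 CPM in the tumors (log2 fold change 1.72, SE 0.21, edgeR adjusted p = 0.000553).

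Nr3c1, the glucocorticoid receptor, and Stat5b, which carries cytokine signals to Bcl2l1 and Bcl2, were lower in ALK. Nr3c1 had 159 ± 26.5 CPM in ALK and 345 ± 34.6 in Ctrl (log2 fold change -1.11, SE 0.18, edgeR adjusted p = 0.00183). Stat5b had 196 ± 45.7 CPM in ALK and 406 ± 18.6 in Ctrl (log2 fold change -1.05, SE 0.24, edgeR adjusted p = 0.00994). Trp73, a relative of p53, was at least 3.30-fold lower in ALK, where each library was at or under 3 counts, and had only 0.768 CPM in Ctrl.

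Of 9 genes of death receptors, their ligands and their adaptors, 3 were called lower in ALK, beside 12% of all genes. Fas, the receptor that can feed into BID, had 90.5, 98.1 and 77.7 CPM in Ctrl and 7.73, 13.6 and 46.6 CPM in ALK (log2 fold change -1.97, SE 0.52, edgeR adjusted p = 0.0175). ALK3 was thus much higher than the other tumors, though below each Ctrl mouse. Its ligand Fasl was at least 6.72-fold lower, with all ALK libraries at or under 3 counts, and Tnfrsf1a, a TNF receptor, had 56.6 ± 18.2 CPM in ALK and 139 ± 9.16 in Ctrl (log2 fold change -1.30, SE 0.21, edgeR adjusted p = 0.00218).

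Of 5 other pro-survival genes, 2 had enough reads to be tested and both were called lower in ALK, beside 12% of all genes. Bcl2a1a had at most 0.391 CPM in ALK and 1.18 to 1.69 CPM in Ctrl, and Bcl2a1d at most 0.313 and 1.19 to 2.22 CPM. These are near-identical copies between which reads cannot always be placed, so both values are uncertain and the 2 calls are not independent. Of 6 caspases, 9 apoptosome and mitochondrial genes and 5 inhibitor of apoptosis genes, 1 each passed the adjusted p, beside 29.5% of all genes. These changes were all inside the fold threshold.

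**Figure D5:**
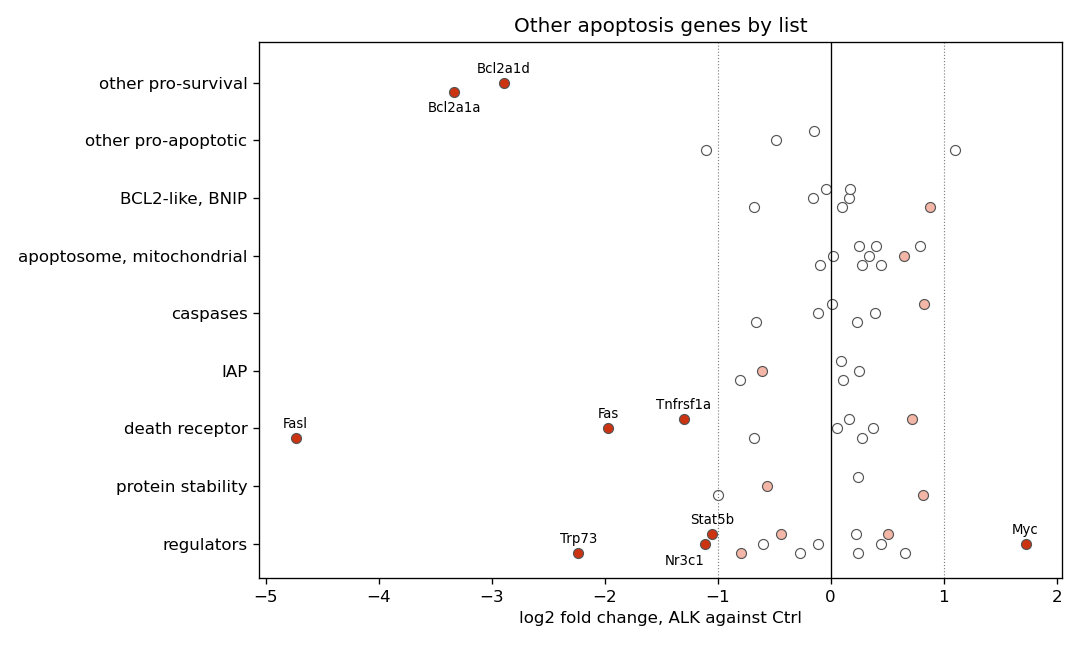
Log2 fold change in ALK against Ctrl of the 60 other apoptosis genes tested, 1 point per gene by list; red, called; pale red, adjusted p under 0.05 only; white, neither; dotted lines at -1 and 1. Myc is the called gene on the right, and 8 named genes are called on the left; those of Fasl and Trp73 are fitted values of genes at the count floor in ALK.

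Against ALKKO, the same tumors had 1 of the 60 genes called higher and 7 lower, beside 7.03% and 12.6% of all genes. Myc (log2 fold change 1.82, SE 0.21, edgeR adjusted p = 0.000512) was again higher and Nr3c1 (-1.25, SE 0.18, edgeR adjusted p = 0.00123) lower. In the interaction, Myc (1.69), Nr3c1 (-1.56) and Tnfrsf1a (-1.35 on the log2 scale) were called, beside 8.93% of all genes.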

How the data were processed

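RNA libraries of 12 mice were analysed, 3 in each of 4 groups taken from the labels; the members and gene lists were chosen with earlier results of these data known. The authors made stranded poly(A) libraries, aligned 50-nt single-end reads to mm10 with STAR and deposited raw HTSeq counts per gene. The strand setting and annotation release are not given in the sources used here. By HTSeq's defaults, reads that fit more than 1 place or gene are in no gene's count, which would lower genes with copies or overlapping neighbours; Bak1, Bid, Bad and Bcl2 have an antisense neighbour and Bax one on its own strand. The labels give 19 to 31 wk of age and the study's methods a lower one.

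Of 50600 gene IDs, 50376 matched GENCODE M21. The quasi-likelihood test of edgeR (version 4.0.16, R 4.3.3) was applied to the counts after TMM and filterByExpr, with a term for each group, robust glmQLFit, and Benjamini-Hochberg adjustment over 16052 genes. Standard errors were derived from the F statistic. Levels per kb used the union of a gene's exons. Of HTSeq's tally, 43.8% to 55.3% per library lay outside the gene counts, most of it alignments that were not unique. This need not equal a share of reads. The floor of 3 counts was 0.159 to 0.241 CPM, and floors cover counting error only. An exact permutation test of 3 mice against 3 cannot give a two-sided p below 0.1. Alternatives were DESeq2 1.42.0 (Wald test, or its size factors in edgeR), other count filters, sex, age or replicate number as terms, only the 2 groups compared, and each library left out; leaving out KO2 and KO3 together was chosen once the data had been seen. The edgeR fit was also run on simulated counts with known changes, and the other steps were not tested in this way. The other genes named were those of the lists called in ALK against Ctrl with a mean of at least 1 CPM in a group, or in another comparison. Methylation data were not used here, and 1 gene of the lists is not reported here.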

Additional observations from a re-analysis of the deposited data

Results flagged for a closer look

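For 3 members the difference between NPM-ALK and non-transgenic mice was itself different between mice with and without the Dnmt1 deletion. The test was edgeR's interaction term, which called 8.93% of all genes tested. The interaction of Bcl2l1 was -3.13 on the log2 scale (SE 0.41, adjusted p = 0.00276), with 6.93-fold lower levels in ALK against Ctrl and a log2 fold change of 0.33 in ALKKO against KO. That of Bax was 1.18 (SE 0.29, adjusted p = 0.0319), from 1.07 without and -0.11 with the deletion. That of Bbc3 was -1.97 (SE 0.50, adjusted p = 0.0359), from -1.85 and 0.12. Bax and Bbc3 were no longer called without Ctrl1, Ctrl2, KO3, ALKKO1 or ALKKO2, where Bcl2l1 alone was left. Without KO2, Mcl1 and Pmaip1 were called in their place. The group with both alterations had no tumors among its samples, so tissue and deletion cannot be told apart in these values.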

How the results depend on the processing

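The 4 called members of ALK against Ctrl became 3 to 5 when each library was left out in turn and 4 to 5 under the other alternatives; against ALKKO, 4 became 4 to 5 under both. Against Ctrl, Mcl1 accounts for each gain except Bcl2l11 without ALK1, and Bax for the losses, with Mcl1 in place of Bax under the filter of 10 counts in every library; against ALKKO, Bcl2l11 was gained without ALK1, Bcl2 without the fold threshold, and Bcl2 replaced Bax without ALK2. Counts of 0 in the other comparisons were 0 under all 22 alternatives. The interaction called 1 to 3 members with each library left out, 1 with KO2 and KO3 both left out and 2 with the replicate block; Bcl2l1 was called in each of these fits. Replicate numbers were not taken as pairs in the main fit. Same-numbered libraries of different groups correlated at -0.11 to 0.43 in their deviations from group means, and differently numbered ones at -0.46 to 0.21. With 3 mice in each group, these values cannot show whether the samples were paired. Bcl2 in ALK against Ctrl passed the adjusted p, not the fold threshold, in 5 of 21 alternatives. These were the replicate block (log2 fold change -0.69), sex as a term, and the fits without KO2, KO3 or both. KO2 was the only female, so the sex term sets that library apart much as leaving it out does. The KO libraries bear on ALK against Ctrl mainly through the estimate of spread that all groups share. No direction of a called member was reversed under any alternative. With the longest transcript as the length, 8 of 10 members kept their rank in Ctrl, Bad and Bbc3 changing places. Only ranks were compared in this way, and not the overlaps, sums, shares and ratios per kb. Depth limits Pmaip1 most, with 18 to 29 reads in the tumors.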

Other observations

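A further 10 of the listed apoptosis genes passed the adjusted p in ALK against Ctrl with changes inside the fold threshold. With the 9 called, 19 of 60 passed it, beside 29.5% of all genes. Casp8 and Fadd, which join at death receptors, were higher (log2 fold changes 0.82 and 0.72, edgeR adjusted p = 0.00880 and 0.0182), as were Trp53, which encodes p53 (0.51, adjusted p = 0.00842), Bnip1 (0.88, adjusted p = 0.0269) and the channel gene Vdac3 (0.65, adjusted p = 0.0107). Huwe1, a ubiquitin ligase that marks MCL1 for degradation, was higher (0.81, adjusted p = 0.00318), and Fbxw7, part of another ligase that acts on MCL1, was lower (-0.56, adjusted p = 0.00687). Birc2, Ddit3 and the p53 antagonist Mdm2 were lower (-0.61, -0.79 and -0.44, adjusted p = 0.0155, 0.0314 and 0.0423). These 10 were named after their values were seen.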
